A study of Mus musculus with 7 samples.

Results

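The BMP antagonists described here are 6 genes, Nog, Grem1, Fst, Fstl1, Bambi and Sostdc1, chosen by name in the Gene column of the deposited exon count table, which lists 15415 genes. All 6 were listed once, and all 6 passed the filter on low counts that 12266 genes passed. They were measured by RNA-seq in back-skin epidermal cells of mice, after a sort for live cells that carry Lgr5 and lack CD45. Lgr5 is a receptor that marks hair follicle stem cells and was read through GFP, and CD45 is the surface marker of leukocytes. There were 3 samples from mice aged 45 days in Telogen, when hair follicles rest, and 4 from mice aged 35 days in Anagen, when they grow. Every sample came from C57Bl6 x B10D2 mice, so both groups share the strain, and the same GFP and CD45 sort is described for both. The labels name neither the allele that carries GFP nor the number of mice behind a sample. The p-values therefore rest on the spread among the 7 samples, whose source may in part be technical. Age, phase and sequencing depth cannot be told apart, since every Telogen sample was older and shallower than every Anagen sample.

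Bone morphogenetic proteins (BMPs) are secreted ligands that bind paired serine/threonine kinase receptors, which phosphorylate SMAD1, SMAD5 and SMAD9. These enter the nucleus with SMAD4 and switch on targets such as the Id genes. In hair follicles BMP signalling is known for holding stem cells quiescent during the resting phase, and antagonists are known for releasing that hold when growth starts. Noggin (Nog) and Gremlin 1 (Grem1) bind BMPs and keep them from their receptors. Follistatin (Fst) mainly traps activins and also some BMPs, and Fstl1 encodes a secreted glycoprotein related to it. Sostdc1 encodes a secreted inhibitor of both BMP and WNT signalling. Bambi encodes a membrane pseudoreceptor that lacks the kinase domain.

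Total counts per library ranged from 5097457 to 6453337 in Telogen, and from 13719893 to 17042690 in Anagen. The unit of level is CPM, the count relative to the TMM-adjusted library total, and 3 counts correspond to 0.165 to 0.594 CPM in a library. All 8 follicle epithelium markers were detected, and they summed to 16813 to 24916 CPM per Telogen library and 23465 to 28376 CPM per Anagen library, but their makeup differed. Of the 8, 3 rose (Krt5, Krt14 and Sox9), 4 fell, and Cdh3 did not pass. The 4 that fell were the stem cell markers Krt15 (8636 ± 1995 to 171 ± 65.1 CPM), Cd34 (511 ± 20.4 to 12.7 ± 5.30 CPM) and Lgr5 itself (461 ± 13.7 to 56.2 ± 30.6 CPM), and the integrin gene Itga6 (848 ± 203 to 189 ± 29.9 CPM; SD, n = 3 and 4). Of 12 fixed markers of dermal fibroblasts and the dermal papilla 11 were listed and 8 tested, of which 7 rose and 0 fell. The 11 summed to 33.3 to 46.2 CPM in Telogen, where Dcn, Lum, Pdgfrb, Alpl and Fgf7 were at 0. They summed to 1092 and 1534 CPM in Anagen 1 and Anagen 2, and to 92.3 and 108 CPM in Anagen 3 and Anagen 4. In Anagen 1 and Anagen 2 most of the sum was Col1a1 (271 and 364 CPM), Col1a2 (379 and 568 CPM) and Col3a1 (313 and 477 CPM). Pdgfra, at 2.10 ± 2.98 CPM in Telogen and 0.680 ± 0.433 CPM in Anagen, did not pass. Of 12 leukocyte markers 10 were listed and 2 tested (0 rose, 1 fell). The 10 summed to 4.63 to 29.7 CPM in Telogen and 0.772 to 2.64 CPM in Anagen. Cd3d, Cd3e, Cd3g, Tyrobp and Cd207 were at 0 in Anagen. Markers of suprabasal interfollicular epidermis summed to 665 to 1128 CPM in Telogen and 17.7 to 28.4 CPM in Anagen (5 of 6 listed, 5 fell), and those of hair matrix and inner root sheath to 107 to 134 and 342 to 452 CPM (8 of 8 listed, 7 rose). Melanocyte markers (6 of 8 listed, 1 rose, 1 fell) summed to 166 to 319 and 19.8 to 24.7 CPM, mostly Mitf in Telogen (211 ± 83.3 CPM), while Pmel rose (4.63 ± 1.19 to 10.7 ± 3.14 CPM). Schwann cell markers (6 of 6 listed, 2 rose, 1 fell) summed to 12.5 to 21.6 and 75.2 to 92.5 CPM, mostly S100b in Anagen (67.9 ± 6.84 CPM, and 0 counts in Telogen), while Mbp fell (9.57 ± 3.72 to 2.36 ± 1.71 CPM). Smooth muscle markers (5 of 6 listed, 2 rose, 0 fell) summed to 1.44 to 3.37 and 15.5 to 35.9 CPM, and endothelial markers (5 of 6 listed, 1 rose, 0 fell) to 0 to 2.49 and 2.16 to 10.6 CPM. The part that these shifts in cell markers have in the antagonist levels was not tested. Results that rest on Anagen 1 and Anagen 2 are also given without them where such a value was computed.

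Of the 6 antagonists 4 fell in Anagen, by very different amounts (Nog, Grem1, Fst and Sostdc1), 0 rose, and Bambi and Fstl1 did not pass. A gene passed at a Benjamini-Hochberg adjusted p under 0.05 in the quasi-likelihood test of edgeR, adjusted over all genes tested. Over all 12266 genes 49.5% passed, 25.8% higher and 23.7% lower in Anagen. Without adjustment, 5 were lower and 0 higher at 0.05, against 26.5% and 29.4% of all genes. DESeq2 called 5 lower and 0 higher, against 23.9% of all genes in either single direction. The median log2 fold change (Anagen minus Telogen) of the 6 was -2.77, against 0.09 over all genes tested. Telogen and Anagen libraries did not overlap for 5 of the 6, against 54.5% of all genes. In sorted bulk samples, fewer cells that express a gene and less RNA per cell cannot be told apart, and this holds for every difference below.

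**Figure D1:**
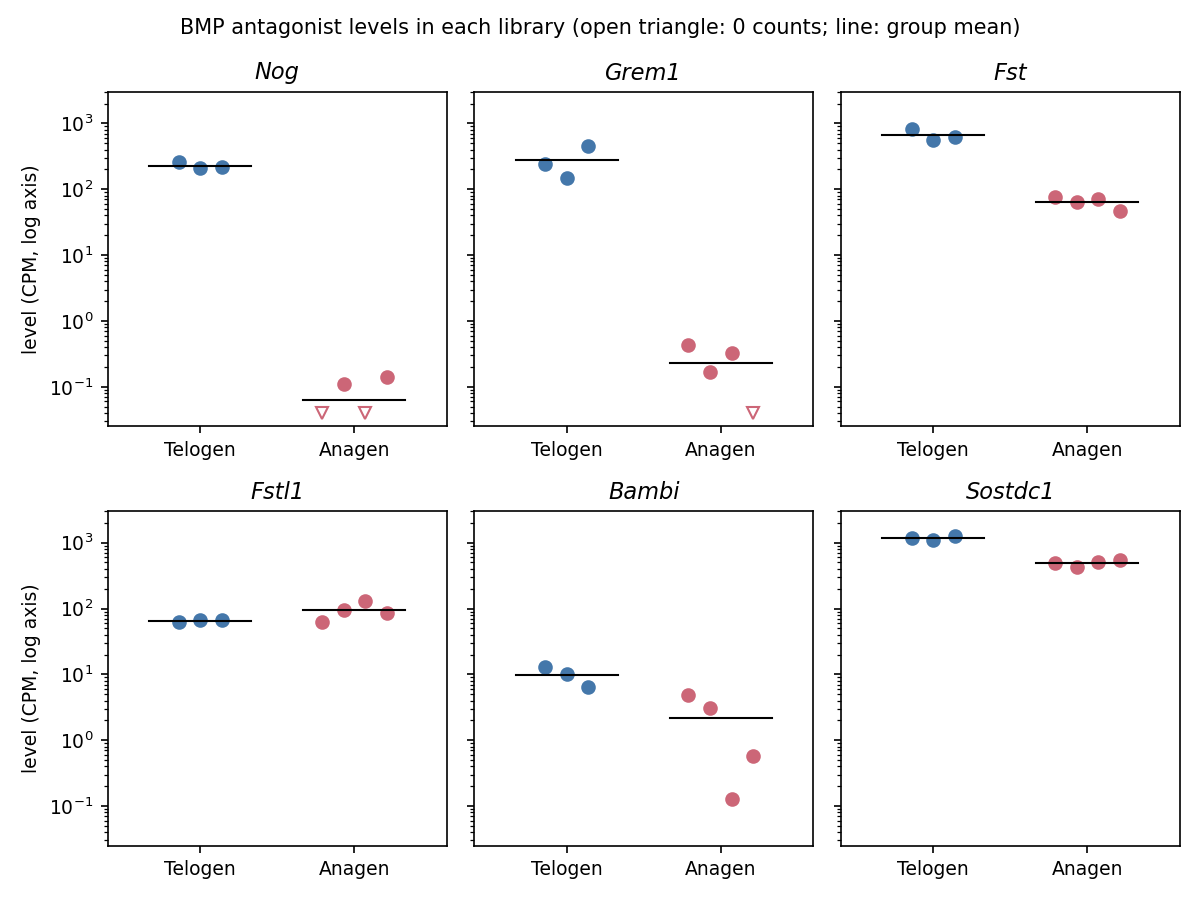
Level of each of the 6 genes in CPM (log axis) in the 3 Telogen and 4 Anagen libraries, with a point per library, a line at the group mean and an open triangle for 0 counts. Nog and Grem1 are above 100 CPM in Telogen and below 1 CPM in Anagen, Fst and Sostdc1 keep measurable levels in both phases, and Fstl1 overlaps between phases.

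Nog was present in every Telogen library and almost absent from Anagen. Its level was 259, 211 and 218 CPM in Telogen 1 to 3, from 1454, 1322 and 1100 counts, and 0, 0.110, 0 and 0.143 CPM in Anagen 1 to 4, from 0, 2, 0 and 2 counts. The groups were far apart and the Telogen libraries were close together, with a highest level 1.23 times the lowest. Each Anagen library was under 3 counts, so the libraries cannot be ranked among themselves.

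The group means of Nog were 229 ± 25.8 CPM (SD, n = 3) in Telogen and 0.0633 ± 0.0743 CPM (SD, n = 4) in Anagen. Summed over libraries the level was 3524 times lower in Anagen (95% exact binomial interval 1375 to 12942, for counting error only). The 4 Anagen reads set that ratio, and without Anagen 4 it was 5446 (95% interval 1507 to 44989). The log2 fold change was -11.56 ± 0.45 (SE; edgeR, adjusted p = 1.06e-07). Its unadjusted 95% interval of -12.56 to -10.56 is narrower, on the log2 scale, than the interval for counting error. The SE of Nog therefore understates the uncertainty left by 4 Anagen reads. By size of the fitted change Nog ranked 4 among the 2902 genes that fell. The gene (NM_008711) is listed at mm10 chromosome 11, 89300638 to 89302559, and lies on the minus strand in GENCODE M21.

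Grem1 was also nearly confined to Telogen, with a wider spread among the Telogen libraries. It stood at 243, 148 and 447 CPM in Telogen 1 to 3 (1366, 926 and 2258 counts), and at 0.432, 0.165, 0.322 and 0 CPM in Anagen 1 to 4 (6, 3, 5 and 0 counts). Telogen 3 was 3.02 times Telogen 2, while the same 2 libraries differed little in Nog. The lowest Telogen library was still far above every Anagen library.

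For Grem1 the group means were 280 ± 153 CPM (SD, n = 3) and 0.230 ± 0.188 CPM (SD, n = 4), and the summed level was 1182 times lower in Anagen (95% exact binomial interval 704 to 2164, counting error only). The log2 fold change was -10.19 ± 0.60 (SE; edgeR, adjusted p = 9.35e-07), and it ranked 18 among the genes that fell. Telogen 3, the library highest in Grem1, also held the highest leukocyte marker sum (29.7 CPM, of which Cd3g was 16.8 CPM). Within Telogen it was also highest in melanocyte (319 CPM), Schwann cell (21.6 CPM) and smooth muscle (3.37 CPM) markers. It was lowest in those of follicle epithelium (16813 CPM), dermal cells (33.3 CPM) and hair matrix (107 CPM). The part of any of these cells in the Grem1 level was not tested. Without Telogen 3 the ratio was 849 (95% interval 505 to 1555). Grem1 (NM_011824) is listed at mm10 chromosome 2, 113748675 to 113758648.

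Promoter sequence from RefSeq (GRCm38.p6, the mm10 assembly) was matched for 2 of the 6 genes, Grem1 and Fstl1. Both are shown because they were the 2 matched, and they set a gene that fell beside the 1 member whose mean was higher in Anagen. The 250 bases before each RefSeq start are given, in the direction of the gene, with matches to searched motifs in capitals. Grem1 is at chr2:113758649-113758898 on the minus strand and Fstl1 at chr16:37776805-37777054 on the plus strand. In GENCODE M21 Fstl1 starts at 37776873, inside that window, so most of its window lies within the gene by that annotation.
Grem1: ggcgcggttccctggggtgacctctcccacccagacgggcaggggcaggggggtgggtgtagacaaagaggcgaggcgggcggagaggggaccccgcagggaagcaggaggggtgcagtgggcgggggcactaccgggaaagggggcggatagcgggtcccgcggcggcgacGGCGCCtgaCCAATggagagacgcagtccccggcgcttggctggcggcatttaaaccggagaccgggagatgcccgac
Fstl1: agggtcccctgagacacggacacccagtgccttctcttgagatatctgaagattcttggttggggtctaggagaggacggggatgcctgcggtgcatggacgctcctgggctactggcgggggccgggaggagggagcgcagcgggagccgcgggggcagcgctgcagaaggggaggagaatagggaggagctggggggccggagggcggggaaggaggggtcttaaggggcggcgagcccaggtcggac

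Both stretches were rich in G and C, at 72.0% for Grem1 and 68.0% for Fstl1, above 93.1% and 87.8% of the 32851 promoters of that length. They held 24 and 16 CG pairs. In Grem1 the motif GGCGCC, which SMAD proteins can bind, starts 78 bases before the start and the CCAAT box (CCAAT) 69 bases before it, without overlap. On both strands GGCGCC is in 9.59% and CCAAT in 33.8% of all promoters, so neither is rare. The TATA box (TATAAA, 12.4% of promoters), the SMAD palindrome (GTCTAGAC, 0.167%) and the TCF/LEF motif (CTTTGAT, 3.21%) were in neither window. A match is a description of letters, not a bound site.

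Fst fell about 10-fold but stayed well detected in Anagen. Its level was 822, 565 and 618 CPM in Telogen 1 to 3 and 75.4, 63.7, 71.7 and 46.8 CPM in Anagen 1 to 4. The groups did not overlap, and within each group the highest library was at most 1.61 times the lowest. Means were 668 ± 136 CPM (SD, n = 3) and 64.4 ± 12.7 CPM (SD, n = 4), a ratio of 10.4. The log2 fold change was -3.38 ± 0.23 (SE; edgeR, adjusted p = 1.56e-06). Fst (NM_001301375) is listed at mm10 chromosome 13, 114452262 to 114458951, on the minus strand, and the antisense gene Gm47040 overlaps it. The treatment of strand is not given in the sources used here, so reads from that overlap cannot be assigned to either gene.

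Fstl1, which shares the follistatin name, did not pass the test. It was at 63.0, 67.6 and 66.0 CPM in Telogen 1 to 3 and at 63.4, 96.5, 131 and 84.5 CPM in Anagen 1 to 4. Anagen 1 lay inside the Telogen range and the other Anagen libraries lay above it. Telogen was very even (65.5 ± 2.32 CPM, SD, n = 3) and Anagen was not (93.9 ± 28.4 CPM, SD, n = 4). The log2 fold change was 0.52 with an unadjusted 95% interval of -0.04 to 1.08 (adjusted p = 0.114 by edgeR). Fstl1 (NM_008047) is listed at mm10 chromosome 16, 37777055 to 37836516.

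Sostdc1 was the most abundant antagonist per length in both phases and fell least among the 4 that fell. It stood at 1177, 1098 and 1273 CPM in Telogen 1 to 3 and at 484, 431, 517 and 537 CPM in Anagen 1 to 4. The groups were separate and each was tight, with a highest library 1.16 times the lowest in Telogen and 1.25 times in Anagen. Means were 1183 ± 87.9 CPM (SD, n = 3) and 492 ± 46.5 CPM (SD, n = 4), a ratio of 2.40. The log2 fold change was -1.26 ± 0.16 (SE; edgeR, adjusted p = 0.000105). Sostdc1 (NM_025312) is listed at mm10 chromosome 12, 36314169 to 36318452.

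Bambi was the least abundant of the 6 per length in Telogen, and its Anagen libraries split into a higher and a lower pair. It was at 12.8, 10.1 and 6.34 CPM in Telogen 1 to 3 (72, 63 and 32 counts). In Anagen 1 and Anagen 2 it was at 4.90 and 3.09 CPM (68 and 56 counts), and in Anagen 3 and Anagen 4 at 0.129 and 0.572 CPM (2 and 8 counts). No Anagen library reached the lowest Telogen library, and the highest Anagen library was 38.0 times the lowest. Means were 9.74 ± 3.25 CPM (SD, n = 3) and 2.17 ± 2.24 CPM (SD, n = 4).

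The log2 fold change of Bambi was -2.16 ± 0.87 (SE) and missed the threshold (adjusted p = 0.0586 by edgeR, unadjusted 95% interval -4.07 to -0.25). The same edgeR test passed without Anagen 1 (-2.92 ± 0.92, SE, adjusted p = 0.0276) and without Anagen 1 and Anagen 2 (-4.76 ± 0.89, SE, adjusted p = 0.00343), and DESeq2 on all libraries gave -2.23 (adjusted p = 0.0274). Anagen 1 and Anagen 2 were also the libraries with dermal marker sums of 1092 and 1534 CPM, against 92.3 and 108 CPM in the other 2. Across phases the order was the reverse, since the Telogen libraries had the highest Bambi levels and the lowest dermal sums (33.3 to 46.2 CPM). The part of dermal cells in the Bambi level was not tested. Nog and Grem1 stayed at or under 0.432 CPM in both Anagen 1 and Anagen 2, and their log2 fold changes without these libraries were -11.46 and -10.59. Bambi (NM_026505) is listed at mm10 chromosome 18, 3507957 to 3516404.

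**Figure D2:**
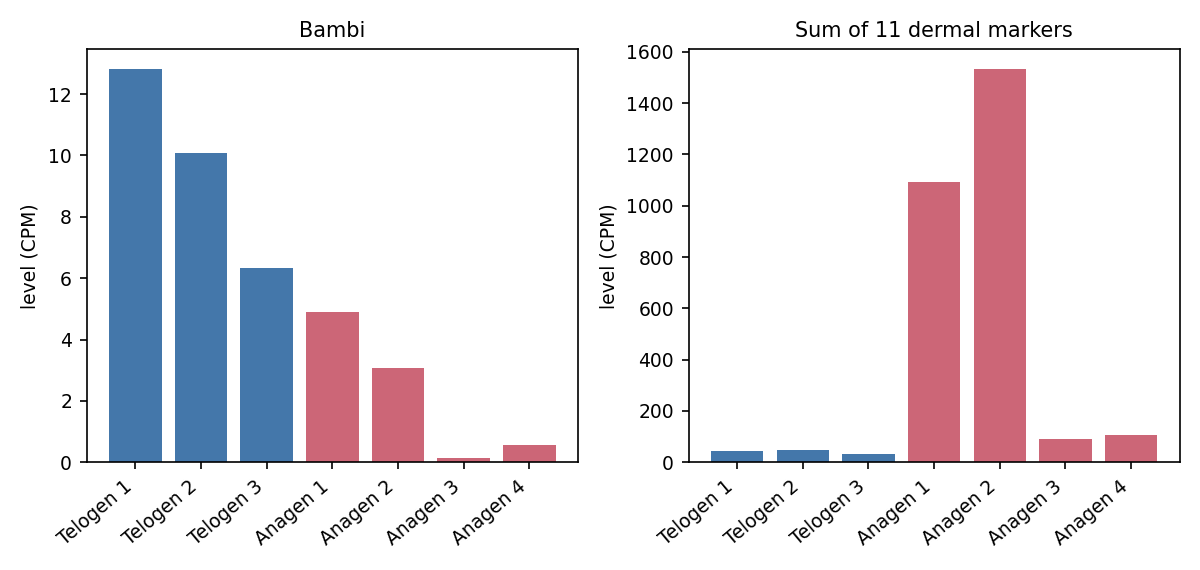
Left, Bambi level in CPM in each library. Right, summed CPM of the 11 listed dermal fibroblast and papilla markers in the same libraries. Anagen 1 and Anagen 2 stand at 1092 and 1534 CPM, and are the Anagen libraries with the higher Bambi levels of 4.90 and 3.09 CPM. The Telogen libraries have the lowest dermal sums (33.3 to 46.2 CPM) and the highest Bambi levels (6.34 to 12.8 CPM).

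Levels of different genes were compared per length, in RPKM, counts scaled to gene length and library total, computed from the deposited counts and lengths. The Telogen order was Sostdc1 (649 ± 61.1 RPKM, SD, n = 3), Fst (223 ± 38.0), Grem1 (165 ± 94.4), Nog (114 ± 9.19), Fstl1 (17.4 ± 1.14) and Bambi (1.84 ± 0.56 RPKM). The libraries of Fst and Grem1 overlapped, as did those of Grem1 and Nog, so these neighbours were not separated beyond their spread. Sostdc1 ranked 84 of 15415 genes by mean RPKM in Telogen, Fst 337, Grem1 483 and Nog 715.

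In Anagen the order of mean RPKM was Sostdc1 (289 ± 24.1, SD, n = 4), Fstl1 (26.8 ± 8.41), Fst (23.1 ± 4.44), Bambi (0.441 ± 0.448), Grem1 (0.143 ± 0.115) and Nog (0.0342 ± 0.040). Fstl1 and Fst overlapped, as did Bambi and Grem1, and Grem1 and Nog, while Fst and Bambi did not. Sostdc1 still ranked 133, while Nog ranked 14174 and Grem1 12896. The mean of Fstl1 lay above that of Fst, from a Telogen level well under it.

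Summed over the 5 secreted antagonists, the level per length was 1169 ± 161 RPKM (SD, n = 3) in Telogen and 339 ± 26.4 RPKM (SD, n = 4) in Anagen. Sostdc1 made up 55.8% ± 3.73 of that sum in Telogen and 85.2% ± 2.67 in Anagen. The share of Nog went from 9.89% ± 1.27 to 0.0102% ± 0.0118, and that of Grem1 from 13.6% ± 6.0 to 0.0429% ± 0.0347. Fstl1 made up 1.51% ± 0.245 in Telogen and 7.85% ± 2.13 in Anagen. These sums were not tested. Of 15 fixed BMP ligands 6 were listed, and their sum was 26.3 ± 8.19 RPKM in Telogen and 36.6 ± 2.88 RPKM in Anagen. Set against that sum, the 5 antagonists were 48.0 ± 18.4 times higher in Telogen and 9.26 ± 0.267 times higher in Anagen, as RNA levels only. The ligand sum includes Bmp3 and the antagonist sum includes Fst, which mainly traps activins. The ratio is therefore not a measure of the balance between BMPs and their antagonists.

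**Figure D3:**
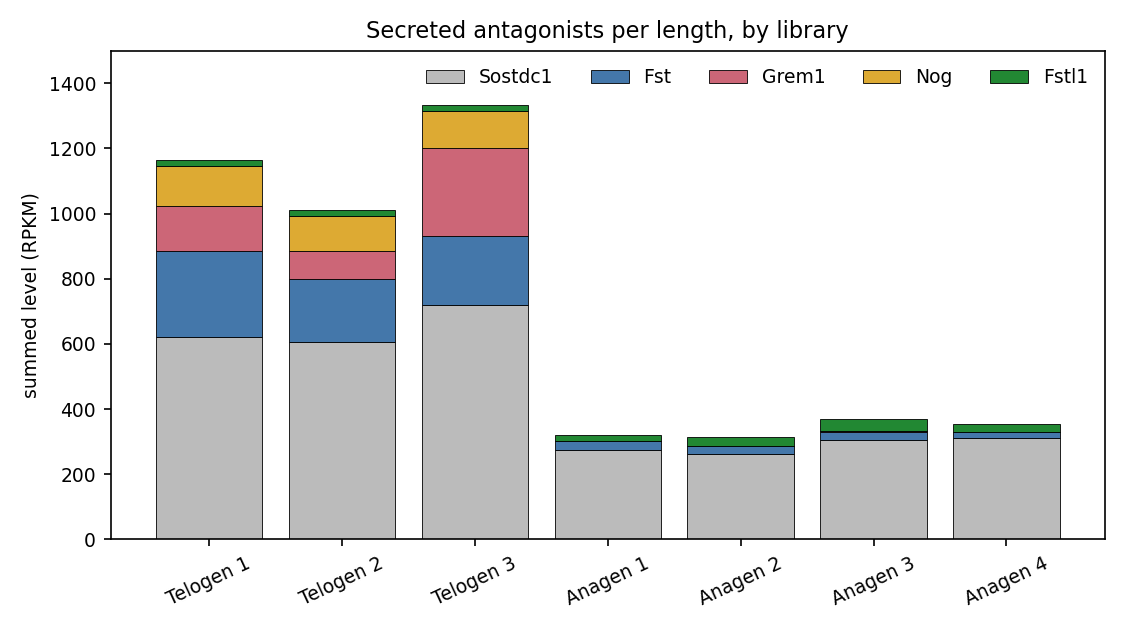
Summed level per length (RPKM) of the 5 secreted antagonists in each library, stacked by gene, with Sostdc1 at the base. The Telogen bars reach 1010 to 1333 RPKM and the Anagen bars 314 to 369 RPKM, in which Nog and Grem1 are too small to see.

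The other genes of the pathway were read from 6 lists of 80 genes, of which 59 were listed and 49 tested. Of these 18 rose, 14 fell and 17 did not pass, and a median log2 fold change of 0.26. In all 65.3% of the 49 passed, against 49.5% of all genes, and 67.3% did not overlap between phases, against 54.5%. By list, 76.9% of other extracellular modulators, 75% of BMP ligands and 66.7% of activin and inhibin subunits passed. The share was 50% for receptors, 70% for SMAD and SMURF genes and 57.1% for targets. These shares were not tested against each other. In what follows, levels are means ± SD over the 3 Telogen and 4 Anagen libraries, and log2 fold changes carry their SE. Without Anagen 1 and Anagen 2 the counts were 12 higher and 12 lower.

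**Figure D4:**
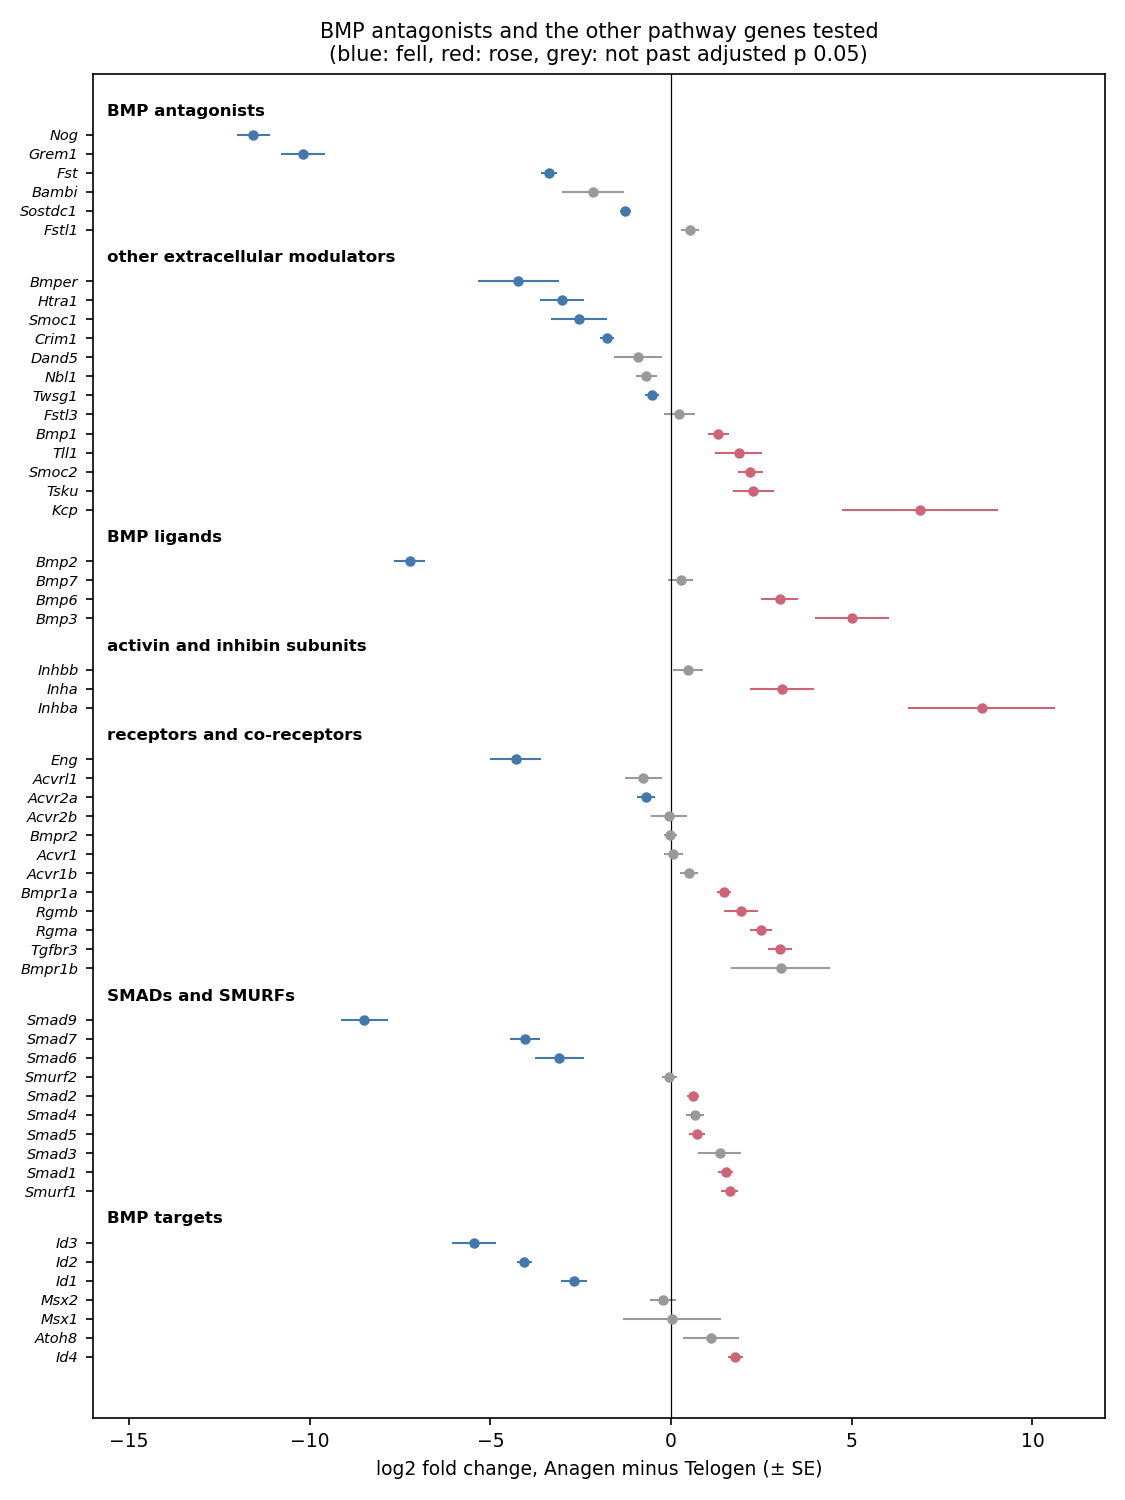
Log2 fold change (Anagen minus Telogen, with SE bars) fitted with edgeR for the 6 antagonists and the 49 other pathway genes tested, in blue for genes that fell, red for genes that rose and grey for genes not past an adjusted p of 0.05. Nog (-11.56) and Grem1 (-10.19) lie farthest to the left. The fitted values of Inhba and Kcp, at 0 counts in Telogen, depend on the prior count of the fit.

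Among other extracellular modulators 5 rose, 5 fell and 3 of 13 tested did not pass. Crim1, a membrane protein that binds BMPs, fell (log2 fold change -1.78 ± 0.20, SE, adjusted p = 4.32e-05 by edgeR), as did the secreted protease Htra1 (-3.03 ± 0.61, from 112 ± 20.8 to 13.7 ± 11 CPM, and -4.69 without Anagen 1 and Anagen 2). The matrix protein gene Smoc2 rose from 16.7 ± 7.55 to 76.1 ± 12.6 CPM (2.19 ± 0.35), and so did Bmp1, a protease that cuts the antagonist chordin (1.31 ± 0.29). Nbl1, of the same DAN family as Grem1, was at 53.3 ± 6.34 CPM in Telogen and 33.1 ± 11.2 CPM in Anagen. It did not pass (adjusted p = 0.0730 by edgeR). By the same test it passed without Anagen 1 (0.0344), but not without Anagen 3 (0.171) or without both Anagen 1 and Anagen 2 (0.0834). Fstl3, a follistatin relative, was at 7.14 ± 3.15 and 8.35 ± 2.51 CPM (adjusted p = 0.687 by edgeR). Of this list 3 rose without Telogen 1, Telogen 3, Anagen 1 or Anagen 2, or without both Anagen 1 and Anagen 2, and 3 fell without Telogen 2.

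Ligand genes moved in both directions. Bmp2 fell from 37.0, 71.3 and 66.0 CPM in Telogen 1 to 3 to 0.288, 0.441, 0.193 and 0.572 CPM in Anagen 1 to 4 (log2 fold change -7.24 ± 0.43, SE; edgeR, adjusted p = 9.59e-07). Bmp6 rose from 9.06 ± 6.23 to 72.2 ± 12.4 CPM (3.01 ± 0.51, adjusted p = 0.000726 by edgeR). Bmp3, known as a ligand that restrains other BMPs, rose from 0.396 ± 0.686 to 12.2 ± 7.65 CPM. Its log2 fold change was 5.01 ± 1.02 by edgeR, and all 6 of its Telogen reads were in Telogen 3. Without Telogen 3 that gene was at 0 counts in Telogen, and without Telogen 2 its value was 4.39. Bmp7, at 27.8 ± 10.8 and 33.3 ± 9.54 CPM, did not pass (adjusted p = 0.554 by edgeR, unadjusted 95% interval -0.50 to 1.03). In all, 2 of 4 tested ligands rose and 1 fell.

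Activins are what follistatin binds most tightly. Inhba, the activin A subunit, had 0 counts in Telogen and 125, 109, 6 and 25 counts in Anagen 1 to 4, at least 24.3-fold higher against 3 counts over the Telogen libraries (at least 15.3-fold without Telogen 2). Its highest libraries were again Anagen 1 and Anagen 2, which held most of its reads. No bound was computed without both, so the size of the rise in the other libraries is not given. Inha, the inhibin subunit, rose from 0.620 ± 0.555 to 5.21 ± 1.93 CPM, with a log2 fold change of 3.08 ± 0.88 by edgeR, which was 3.78 without Telogen 1 and 2.47 without Telogen 2. Inhbb, the activin B subunit, was at 57.8 ± 43.5 and 79.8 ± 20.1 CPM and did not pass (adjusted p = 0.378 by edgeR), but passed without Telogen 3, which held 108 CPM (log2 fold change 1.29, adjusted p = 0.00612 by edgeR). Of the 3 tested, 2 rose and 0 fell by edgeR, with 0 lower before adjustment too and 0 with DESeq2. Only 1 rose without Anagen 1, Anagen 2 or Anagen 4, and 0 by edgeR without both Anagen 1 and Anagen 2, where Inha had an adjusted p of 0.0552.

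Of 12 receptor and co-receptor genes tested, 4 rose, 2 fell and 6 did not pass. The 50% that passed lay near the 49.5% of all genes, and 41.7% did not overlap between phases, against 54.5% of all genes. Bmpr1a, the type I receptor gene required for hair differentiation in mice, rose from 428 ± 41.8 to 1183 ± 228 CPM (log2 fold change 1.47 ± 0.20, SE; edgeR, adjusted p = 0.000154). The BMP co-receptor gene Rgma rose from 19.0 ± 6.79 to 107 ± 17.5 CPM (2.49 ± 0.30) and Tgfbr3 from 7.96 ± 3.09 to 64.3 ± 9.25 CPM (3.01 ± 0.33). Eng, which encodes the co-receptor endoglin, fell from 15.5 ± 9.58 to 0.764 ± 0.668 CPM (-4.30 ± 0.71, or -3.69 without Telogen 2 and -5.01 without Anagen 2). The type II receptor gene Bmpr2 was at 1237 ± 260 and 1219 ± 91.0 CPM, with a log2 fold change of -0.02 and an unadjusted 95% interval of -0.42 to 0.38. Acvr1b, an activin receptor gene, was at 277 ± 77.5 and 391 ± 102 CPM and did not pass (adjusted p = 0.133 by edgeR), but passed without Telogen 3 (0.0380) or Anagen 3 (0.0497). Only 1 receptor fell without Telogen 2, Telogen 3, Anagen 1, Anagen 2 or Anagen 3, without both Anagen 1 and Anagen 2, with upper-quartile factors, and with the replicate number as a block.

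SMAD and SMURF genes moved in both directions. Smad9, a BMP-responsive SMAD, stood at 45.6, 49.6 and 40.2 CPM in Telogen 1 to 3 and at 0.360, 0.110, 0 and 0 CPM in Anagen 1 to 4, which is 5, 2, 0 and 0 counts. Its log2 fold change was -8.49 ± 0.65 (SE; edgeR, adjusted p = 4.16e-06), and -9.74 without Anagen 1. All 7 Anagen reads were in Anagen 1 and Anagen 2, and without both Smad9 was at least 447-fold lower in Anagen, against 3 counts over the other 2 libraries. The inhibitory Smad7 fell from 312 ± 182 to 18.8 ± 5.34 CPM (-4.05 ± 0.42), with a Telogen spread of 129 to 494 CPM. Smad1 rose from 54.8 ± 8.78 to 156 ± 21.9 CPM (1.51 ± 0.21), and Smurf1, a ubiquitin ligase that targets SMADs, from 17.2 ± 0.407 to 52.7 ± 7.24 CPM (1.62 ± 0.24). Smad4 did not overlap between groups and lay on the threshold (log2 fold change 0.65 ± 0.25, adjusted p = 0.05001 by edgeR, just above it), passing without Telogen 2 (0.0157) and with upper-quartile factors (0.0285). Smurf2, at 182 ± 28.9 and 176 ± 33.3 CPM, did not pass (0.860). Of 10 tested, 4 rose and 3 fell, and 2 rose without Telogen 1, without Anagen 1 or without both Anagen 1 and Anagen 2.

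The BMP targets Id1, Id2 and Id3, which encode inhibitors of basic helix-loop-helix transcription factors, fell, and Id4 rose. Id2, the most abundant of the 4 per length in Telogen, was at 4359, 3505 and 3084 CPM in Telogen 1 to 3 and at 180, 239, 260 and 196 CPM in Anagen 1 to 4. Id1 fell from 76.3 ± 11 to 11.9 ± 5.16 CPM (log2 fold change -2.68 ± 0.35, SE, adjusted p = 0.000133 by edgeR, and -3.28 without Anagen 1 and Anagen 2). Id3 fell from 174 ± 22.2 to 3.92 ± 3.42 CPM (-5.45 ± 0.61, or -6.18 without Anagen 2 and -7.00 without Anagen 1 and Anagen 2). Its Anagen levels of 4.54, 8.49, 1.80 and 0.858 CPM were higher in Anagen 1 and Anagen 2 than in the other 2.

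Id4 rose from 218 ± 29.4 to 744 ± 134 CPM (1.77 ± 0.20, adjusted p = 5.58e-05 by edgeR), with no overlap. Msx2 was at 16.3 ± 8.09 and 14.0 ± 1.74 CPM and did not pass (adjusted p = 0.630 by edgeR). Msx1 rested on 1 Anagen library and did not pass (adjusted p = 0.990 by edgeR). It had 2, 12, 91 and 0 counts in Anagen 1 to 4. Of 7 tested targets 3 fell, 1 rose and 3 did not pass.

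**Figure D5:**
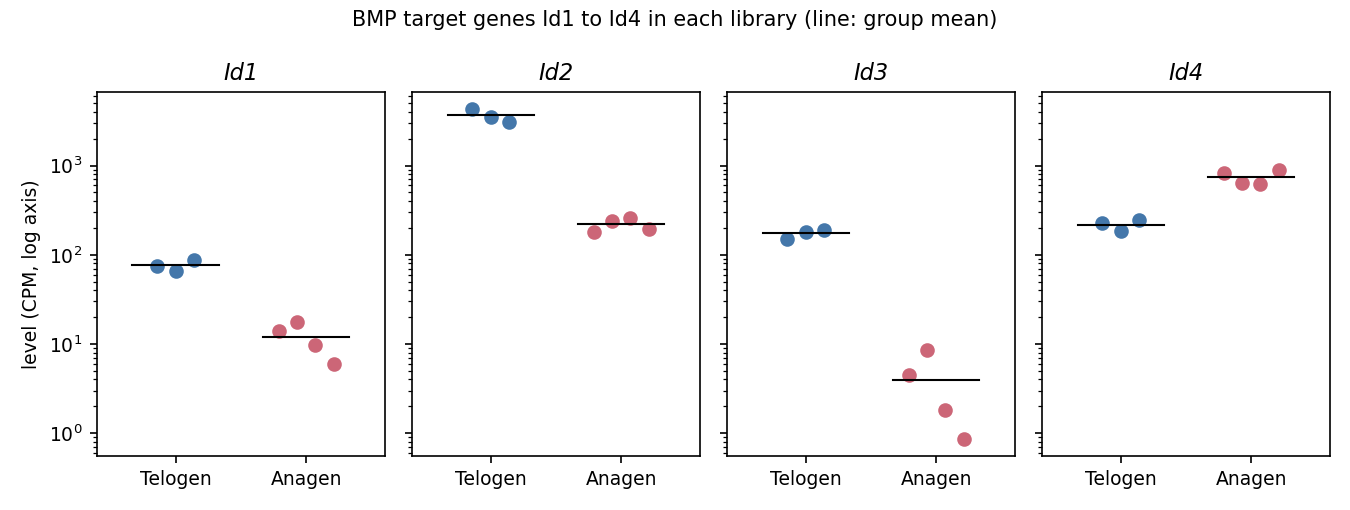
Level of Id1 to Id4 in CPM (log axis) in the 3 Telogen and 4 Anagen libraries, with a point per library and a line at the group mean. Id1, Id2 and Id3 are lower in all 4 Anagen libraries than in any Telogen library, while Id4 is higher in all 4.

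Likeness of pattern was measured as Pearson's r of log2 CPM over the 7 libraries, as a description without a test. Since the 7 libraries form 2 phases, any gene with a large and even fall scores high: 816 of 12260 other genes had r above 0.95 with Nog, 742 with Grem1, 845 with Fst and 484 with Sostdc1. The 3 closest to Nog were Trim2, Pdzrn4 and Cacybp (r = 0.999 each). Of these Pdzrn4 was nearest in size, at 563 ± 219 CPM in Telogen and 0.658 ± 0.265 CPM in Anagen. Closest to Grem1 were 1500026H17Rik, Vimp and Fam84b (0.998, 0.998 and 0.997), to Fst Calml3, Prnp and Galk2 (0.999, 0.999 and 0.998) and to Sostdc1 Lysmd2, Tekt2 and Kctd4 (0.996, 0.994 and 0.993).

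Fewer genes resembled the members that did not pass the test. Only 18 of the 12260 genes had r above 0.95 with Bambi, led by Dennd1c, Spg21 and Fn1 (0.985, 0.984 and 0.977). Fn1, the fibronectin gene, was at 45.7 ± 7.81 CPM in Telogen and 21.1 ± 17.0 CPM in Anagen. With Fstl1 only 3 genes passed that level, Krtap15, Caskin1 and Dolk (0.969, 0.963 and 0.958). All 3 were low, at 14.0 CPM or less on average in Anagen.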

How the data were processed

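RNA was extracted with Trizol and amplified with the Ovation RNA-Seq System V2, per the labels' protocols. The deposited table holds the authors' raw read counts per gene, 1 row per gene with a RefSeq accession, with coordinates on mm10 (submitters' processing notes). Which aligner, counter and strand setting were used is not given in the sources used here. Per the file headers the authors' table also has a gene length (other unit, in bases), used for RPKM, and 7 further per-sample columns, which were not used. Starts are given 1-based.

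Counts were tested with edgeR 4.0.16 in R 4.3.3 (TMM factors, minimum count 10, minimum total 15, robust quasi-likelihood fit, groups only), with p-values adjusted over all 12266 genes and a threshold of 0.05. The SE was taken from the fold change and its F statistic (absolute log2 fold change over root F). The test was tried on simulated counts first. Interval and floor (3 counts) values cover counting error only. DESeq2 1.42.0 and the settings in the closing section were alternatives. Named pathway genes were up to 4 per list past the threshold with the smallest adjusted p and up to 2 others with the highest mean CPM, and the 3 genes most correlated with each member. The members, lists and settings were chosen with earlier results of these data known. No 2 libraries were copies (chi-square per degree of freedom 22.5 to 67.3 within groups).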

Additional observations from a re-analysis of the deposited data

Results flagged for a closer look

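Among the 4 Anagen libraries, 37 genes (the 6 antagonists and the named pathway genes) were checked for a single library far from the others, and 2 were found, about as many as chance gives when it marks about 1 in 20. Smad1 was at 189 CPM in Anagen 3 against 141 to 148 CPM in the other 3. Msx1 was at 5.86 CPM in Anagen 3 against 0 to 0.662 CPM in the other 3. None of the 6 antagonists was among them.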

How the results depend on the processing

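Over 14 alternatives (other scaling factors, DESeq2, no filter, counts thinned to the smallest total, libraries left out and a replicate block) Nog, Grem1, Fst and Sostdc1 fell in each, and Fstl1 passed in none. Bambi passed with DESeq2 (log2 fold change -2.23), without Anagen 1 and Anagen 2 (-4.76) and in 1 of the fits that left out 1 library, whose values ran from -2.92 to -1.77. Leaving out 1 library gave 2587 to 3208 genes higher and 2526 to 2802 lower.

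Signs turned for pathway genes that passed in neither direction. Bmpr2 was 0.064 and Smurf2 0.036 with upper-quartile factors. Without Anagen 1 and Anagen 2, Bmp7 was -0.12 and Smurf2 0.044. Msx1 was -0.051 with RLE factors and -0.057 with DESeq2. With 1 library left out the ranges were -0.053 to 0.60 for Fstl3, -0.012 to 0.51 for Bmp7, -0.17 to 0.13 for Bmpr2, -0.21 to 0.073 for Smurf2, -0.31 to 0.41 for Msx1 and -0.51 to 0.23 for Msx2. The cause was not tested.

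No pairing by replicate number was seen: deviations of same-numbered libraries correlated at 0.00424, 0.0788 and -0.0451, and not every library correlated best with its own number. With so few libraries this cannot show whether same-numbered samples were handled together. With the number as a replicate block 2497 genes were higher and 2289 lower, the same 4 antagonists fell, and Msx1 was -0.59.

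Few reads limit the Anagen levels of Nog and Grem1, which rest on 4 and 14 reads in all, though the Anagen libraries were the deeper ones.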

Other observations

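Some pathway genes were listed with too few reads to be tested, and they are given here because they fell under the filter. The ligand gene Bmp4 had 0, 2 and 2 counts in Telogen 1 to 3 and 31, 0, 8 and 16 counts in Anagen 1 to 4. The antagonist gene Chrd, which encodes chordin, had 6, 0 and 2 counts in Telogen and 0, 2, 22 and 0 counts in Anagen, with most reads in Anagen 3. Gdf5 had 0, 4 and 3 counts in Telogen and 0 in every Anagen library.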
